A study of Mus musculus with 19 samples.

Results

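Claudins and tight junction proteins were followed at the RNA level through 8 genes: the claudins Cldn3, Cldn4, Cldn5, Cldn6, Cldn7 and Cldn9, the scaffold gene Tjp1 (ZO-1) and Ocln (occludin). They were chosen by name, with earlier results of these data known, so counts over them are descriptions. Their values were obtained by summing the deposited transcript values of each gene. The 8 genes were among 54119 genes in the table, and 6 of them passed the filter on low values (14972 genes passed). Cldn5 and Cldn9 did not reach 1 TPM (transcripts per 1000000, a level corrected for transcript length) in any library and were not tested.

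The data came from 19 mouse RNA libraries in 6 groups. Mouse embryonic stem cells (mESC) were grown with LIF and the 2 kinase inhibitors of 2i medium. Epiblast-like cells (EpiLC) were mESC taken off LIF and given FGF5 and Activin A for 5 days. The mESC were sequenced in 3 libraries for XX, 3 for XY and 4 for Tet3-/-, the EpiLC in 3 libraries for each genotype, with mutants #1 to #4 as mESC and #1, #3 and #4 as EpiLC. XX and Tet3-/- cells were of the LF2 line and XY cells of the E14 line, so sex and line cannot be told apart. The mutation stands in LF2 alone, and the labels do not say whether the numbered mutants are clones, cultures or repeat preparations. The p-values therefore measure the spread between these libraries, which may be technical. The study asked whether TET3, an enzyme that oxidises 5-methylcytosine, is required when mESC become EpiLC.

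A tight junction seals the space between neighbouring epithelial cells near their apical side. Claudins are 4-pass membrane proteins that polymerise into its strands, and which claudins a cell makes sets what ions may pass. Occludin and its relatives tricellulin and MARVELD3 lie in the same strands, and ZO-1 binds the cytoplasmic tails of claudins and ties them to actin. In the embryo, the epiblast becomes a polarised epithelium with an apical lumen after it leaves the naive state.

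On GRCm38, Cldn4 (ENSMUSG00000047501.3, chr5:134945119-134946934, minus strand) and Cldn3 (ENSMUSG00000070473.4, chr5:134986214-134987472, plus strand) lie 39279 bases apart. Both are single-exon genes, as are Cldn5 (chr16:18776847-18778262, plus strand) and Cldn9. Cldn6 (ENSMUSG00000023906.3, chr17:23679249-23682446, plus strand) and Cldn9 (ENSMUSG00000066720.7, chr17:23682584-23684026, minus strand) end 137 bases from each other. Cldn7 is at chr11:69964779-69967885 (ENSMUSG00000018569.12, plus strand). Ocln is at chr13:100496507-100552718 (ENSMUSG00000021638.12, minus strand) and Tjp1 at chr7:65296165-65527781 (ENSMUSG00000030516.14, minus strand). The last 40 bases of Cldn3 overlap Wbscr25 on the other strand, whose mean was at most 0.134 TPM in any group. Libraries were stranded, per the labels' protocols.

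The sequences before the start sites of Cldn3, Cldn4, Cldn6 and Cldn7 are shown because the results turn on these 4 claudins. They come from RefSeq (GRCm38.p6), whose table held 7 of the 8 genes. They run 5′ to 3′ on the gene's strand and stop before the start of any transcript that held at least 10% of the gene's TPM. Capitals mark 3 motifs, on either strand: CACCTG (or CAGGTG), the E-box bound by SNAI and ZEB repressors, GGGCGG (or CCGCCC), bound by SP factors, and TGACGTCA, the palindrome bound by CREB and ATF factors.
Cldn3, chr5:134985964-134986213, plus strand: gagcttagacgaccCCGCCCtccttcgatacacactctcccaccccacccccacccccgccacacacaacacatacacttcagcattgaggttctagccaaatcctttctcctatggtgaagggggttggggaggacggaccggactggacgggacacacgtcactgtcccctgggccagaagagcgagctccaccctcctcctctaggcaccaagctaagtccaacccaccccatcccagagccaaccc
Cldn4, chr5:134946935-134947184, minus strand: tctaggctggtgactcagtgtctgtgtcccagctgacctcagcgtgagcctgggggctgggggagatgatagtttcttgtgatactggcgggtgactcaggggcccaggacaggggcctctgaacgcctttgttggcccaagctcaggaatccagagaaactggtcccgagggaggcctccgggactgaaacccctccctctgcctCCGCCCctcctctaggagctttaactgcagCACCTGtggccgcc
Cldn6, chr17:23679115-23679248, plus strand: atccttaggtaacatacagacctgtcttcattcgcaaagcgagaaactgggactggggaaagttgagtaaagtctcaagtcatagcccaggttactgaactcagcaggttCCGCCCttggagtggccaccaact
Cldn7, chr11:69965171-69965395, plus strand: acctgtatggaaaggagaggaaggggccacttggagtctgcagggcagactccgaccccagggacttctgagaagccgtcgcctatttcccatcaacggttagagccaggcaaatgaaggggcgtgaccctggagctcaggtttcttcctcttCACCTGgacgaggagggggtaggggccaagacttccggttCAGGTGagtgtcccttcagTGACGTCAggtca

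Motifs were counted in the 250 bases before the RefSeq start. TGACGTCA was found in Cldn6 and Cldn7 and in none of the other 5 genes with a window, and 1.55% of all 32851 RefSeq windows held it. It was added to the search after the sequences had been read. In Cldn6 the motif lies downstream of chr17:23679249, where ENSMUST00000024699.3, with 46.7% of the gene's TPM, starts. In Cldn7 it lies before the start of the leading transcript. The motif's first base lay 40 bases before the RefSeq start in Cldn6 and 38 bases before it in Cldn7, as the 30 bases around each copy show.
Cldn6, chr17:23679314-23679343, plus strand: aggtggtccagTGACGTCAttgagacttta
Cldn7, chr11:69965372-69965401, plus strand: tgtcccttcagTGACGTCAggtcactcgac

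CACCTG or its reverse was found once in Cldn4, once in Cldn6 and 2 times in Cldn7, against 17.2% of all windows. GGGCGG or its reverse was found in all 7 genes, against 32.7% of windows. None of the 7 held TATAAA or its reverse, which 12.4% of windows did. CCAAT (or ATTGG) was found 2 times in Cldn5, against 33.8% of windows, and AACCGG (or CCGGTT) once in Cldn7, against 5.62%. In the printed sequences no motif overlapped another. These are matches of letters, and no binding was measured.

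TPM values sum to the same total in every library and keep no sequencing depth, so no counting interval can be given. Between 11128 and 13811 genes reached 1 TPM per library. Protein-coding genes held from 47.4% to 49.6% of TPM in XY EpiLC and from 30.5% to 32.5% in XX EpiLC. Over all tested genes, the median log2 fold change from mESC to EpiLC was 0.14 (XX), 0.54 (XY) and -0.13 (Tet3-/-). XX minus XY had a median of -0.19 among mESC and -0.59 among EpiLC, and Tet3-/- minus XX had 0.19 among mESC and -0.07 among EpiLC. Median-of-ratios scaling, which divides each library by the median ratio of its genes to their geometric means, was used as the alternative. Tet3 itself ranged from 0.536 to 1.06 TPM in XX mESC and from 0.532 to 0.916 in Tet3-/- mESC, and from 1.21 to 1.90 in XX EpiLC and 0.693 to 1.42 in Tet3-/- EpiLC. The labels do not say which exons are deleted, so the gene's total checks nothing.

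The markers of naive pluripotency fell in the transition, with 10 of 10 called lower in XX and Tet3-/- and 9 of 10 in XY. Of 8 formative markers, 6 rose and 2 fell in XX, 7 rose and 1 fell in XY, and 6 rose and 1 fell in Tet3-/-. Among all tested genes 19.2%, 41.1% and 13.6% rose in XX, XY and Tet3-/-, and 12.2%, 9.36% and 21.5% fell. The summed level of the formative markers was 345 to 438 TPM in XY EpiLC but 51.0 to 62.0 in XX EpiLC and 56.7 to 177 in Tet3-/- EpiLC. In mESC that sum was 15.7 to 46.3 TPM in XY, 25.1 to 38.2 in XX and 28.2 to 37.4 in Tet3-/-. Mutant EpiLC #3 stood apart on TPM, with a summed formative level of 177 TPM against 57.9 in #1 and 56.7 in #4, and a summed surface epithelium level of 402 TPM against 147 and 132. The divisors of the median-of-ratios scaling ran from 0.685 to 1.31 in mutant EpiLC, with #3 at 1.31, so scaling narrows these gaps. XX mESC 2 stood below XX mESC 1 and 3 for Cldn4, Cldn6, Cldn7 and Ocln.

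All 6 tested genes rose from mESC to EpiLC in XX, in XY and in Tet3-/-, by limma at an adjusted p under 0.05. Of all tested genes, 19.2%, 41.1% and 13.6% were called higher in these transitions and 12.2%, 9.36% and 21.5% lower. The median log2 fold change of the 6 was 2.33, 2.72 and 1.54. On scaled values all 6 rose in XX and Tet3-/- and 5 in XY, where the background of genes called higher was 23.0%, 23.7% and 24.5%. In bulk RNA, more cells that make a transcript and more transcript per cell cannot be told apart.

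**Figure D1:**
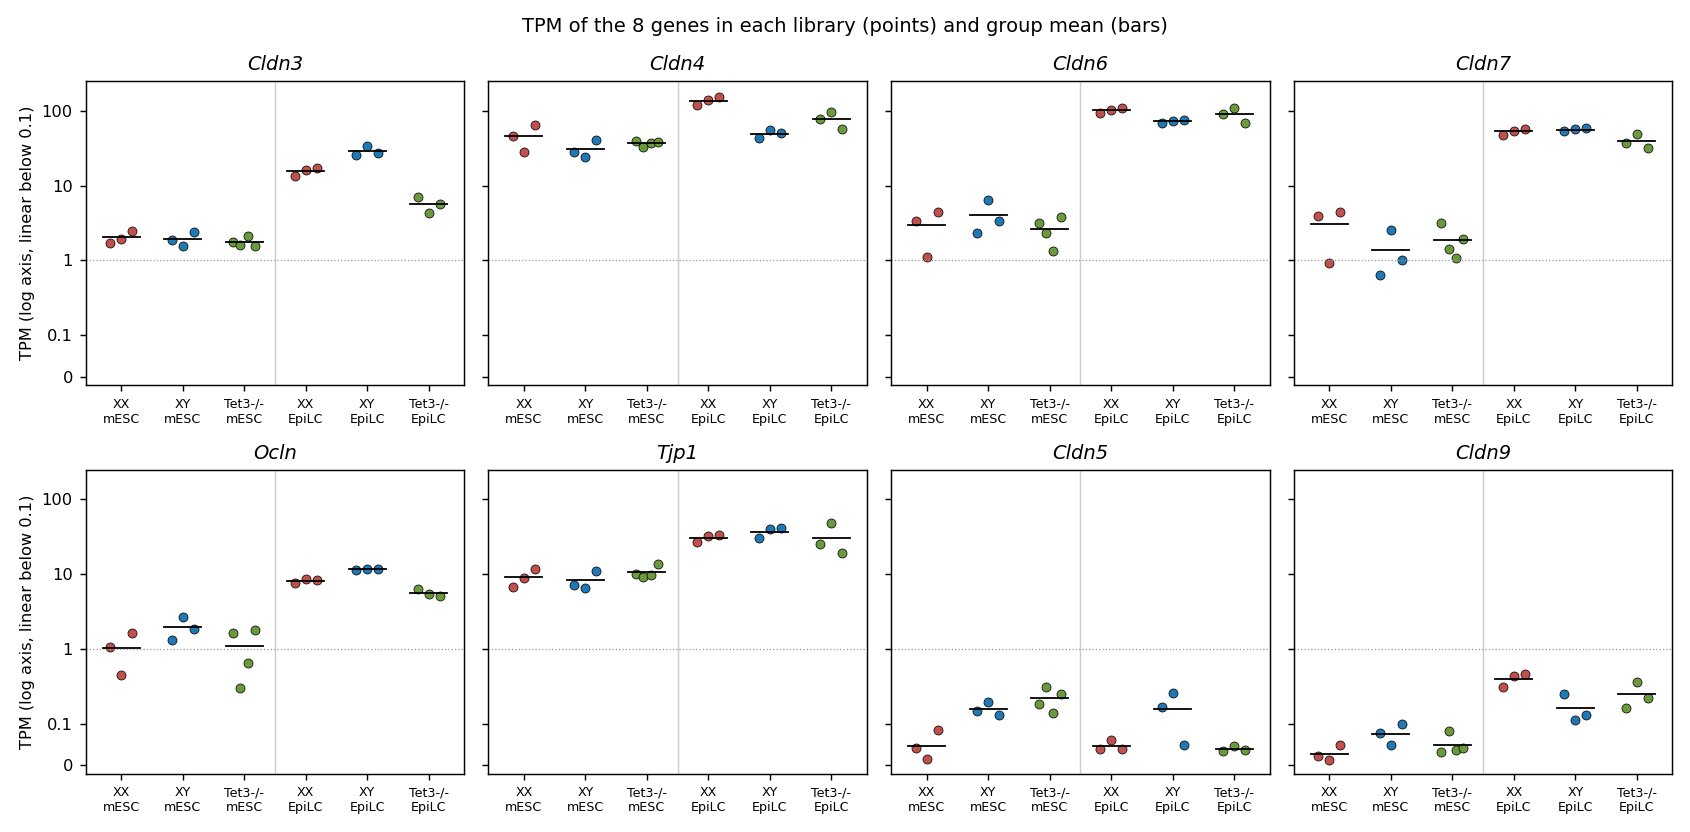
TPM of the 8 genes (log axis, linear below 0.1) in the 6 groups. Points are libraries, bars are group means, and the dotted line is 1 TPM. For Cldn3, Cldn6, Cldn7, Ocln and Tjp1 every EpiLC library lies above every mESC library, while Cldn4 is already at 24.2 to 64.3 TPM in mESC.

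Cldn6, a claudin of embryonic epithelia and of pluripotent cells, made the largest rise of the 6 in XX and Tet3-/-. It was at 3.32, 1.09 and 4.50 TPM in XX mESC 1 to 3 and at 93.9, 102 and 110 TPM in XX EpiLC. In XY it went from 2.32, 6.45 and 3.41 TPM to 67.8, 73.8 and 76.4 TPM. In Tet3-/- it went from 3.13, 2.35, 1.32 and 3.82 TPM (#1 to #4) to 90.8, 110 and 69.6 TPM (#1, #3 and #4). Every EpiLC library lay far above every mESC library, and Tet3-/- EpiLC overlapped both other genotypes. On scaled values Tet3-/- EpiLC (84.1 to 115) overlapped XX (104 to 107) and lay above XY (42.9 to 47.8). The means rose 34.3-fold, 17.9-fold and 34.01-fold. On the log2(TPM + 1) scale, which understates changes of low genes, the changes were 4.80 (SE 0.35, adjusted p 5.47e-09 by limma), 3.94 (SE 0.35, adjusted p 3.27e-08 by limma) and 4.67 (SE 0.32, adjusted p 2.13e-09 by limma).

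Cldn7, which binds the adhesion molecule EpCAM and lies also along lateral membranes, was at most 4.50 TPM in any mESC library. In XX it was at 3.90, 0.931 and 4.50 TPM in mESC and at 47.7, 53.7 and 57.7 TPM in EpiLC. In XY it was at 0.630, 2.53 and 1.00 TPM and then at 53.0, 56.9 and 58.6 TPM. In Tet3-/- it was at 3.14, 1.42, 1.07 and 1.92 TPM and then at 36.8, 49.1 and 31.8 TPM. The XX and XY EpiLC libraries overlapped, and 2 of 3 mutants lay below all of them. On scaled values the order turned, with XX at 54.0 to 55.9, Tet3-/- at 37.4 to 46.6 and XY at 33.0 to 37.4, where each mutant lay above each XY library. The log2 fold changes were 3.85 (SE 0.36, adjusted p 1.15e-07 by limma) in XX, 4.66 (SE 0.36, adjusted p 5.62e-09 by limma) in XY and 3.83 (SE 0.33, adjusted p 3.68e-08 by limma) in Tet3-/-.

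Cldn3, a barrier-forming claudin of many simple epithelia, was low in all mESC and differed between the genotypes in EpiLC. In mESC it was at 1.72, 1.91 and 2.44 TPM in XX, 1.90, 1.57 and 2.42 in XY, and 1.77, 1.58, 2.14 and 1.54 in Tet3-/-. In EpiLC it was at 13.5, 16.2 and 17.0 TPM in XX, 25.5, 34.1 and 27.04 in XY, and 7.06, 4.29 and 5.62 in Tet3-/-. The mESC groups overlapped throughout, and the 3 EpiLC groups did not overlap at all, in the order XY, XX, Tet3-/-. On scaled values XX (15.3 to 16.5) and XY (15.4 to 19.8) overlapped. The transition was 2.45 (SE 0.20, adjusted p 2.16e-08 by limma) in XX, 3.33 (SE 0.20, adjusted p 2.54e-10 by limma) in XY and 1.25 (SE 0.19, adjusted p 2.53e-05 by limma) in Tet3-/-, in log2 units.

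Cldn4, the other claudin of this pair of neighbours, had the highest mESC level of the 6. It was at 45.7, 28.2 and 64.3 TPM in XX mESC, 28.3, 24.2 and 40.5 in XY and 40.0, 32.6, 37.7 and 38.3 in Tet3-/-. In EpiLC it was at 119, 142 and 151 TPM in XX, 43.1, 55.2 and 49.9 in XY, and 77.6, 94.99 and 57.1 in Tet3-/-. The EpiLC groups again did not overlap, but in the order XX, Tet3-/-, XY. The log2 fold change was 1.62 (SE 0.28, adjusted p 0.000144 by limma) in XX and 1.00 (SE 0.26, adjusted p 0.00505 by limma) in Tet3-/-. In XY it was 0.68 (SE 0.28, adjusted p 0.047 by limma), and -0.031 (adjusted p 0.936 by limma) on scaled values, where XY mESC had 30.7, 32.3 and 29.8 and XY EpiLC 30.4, 32.1 and 28.4. The XY call was also lost when any of 13 of the 19 libraries was left out.

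Occludin was low in mESC, at 0.453 to 1.62 TPM in XX, 1.33 to 2.72 in XY and 0.297 to 1.83 in Tet3-/-. In EpiLC Ocln was at 7.59, 8.56 and 8.37 TPM in XX, 11.3, 11.8 and 11.7 in XY and 6.34, 5.39 and 5.12 in Tet3-/-. Its EpiLC groups did not overlap, in the same order as those of Cldn3, but on scaled values XX (8.12 to 8.75) lay above XY (6.63 to 7.97) and Tet3-/- (4.11 to 8.03) overlapped XY. It rose by 2.21 (SE 0.27, adjusted p 3.95e-06 by limma), 2.11 (SE 0.27, adjusted p 3.85e-06 by limma) and 1.72 (SE 0.25, adjusted p 2.55e-05 by limma) log2 units in XX, XY and Tet3-/-.

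Tjp1 was at 6.54 to 13.6 TPM over all mESC libraries. In EpiLC it was at 27.3, 32.1 and 33.6 TPM in XX, 30.6, 39.8 and 41.4 in XY, and 25.1, 48.4 and 19.5 in Tet3-/-. The mutant EpiLC libraries spread over more than the range of the other genotypes, with #3 highest and #4 lowest. On scaled values they were at 28.5 to 36.9, above XY (21.5 to 23.6) and around XX (31.0 to 32.8). The rises were 1.67 (SE 0.29, adjusted p 0.000182 by limma), 2.06 (SE 0.29, adjusted p 1.19e-05 by limma) and 1.37 (SE 0.27, adjusted p 0.000557 by limma) log2 units in XX, XY and Tet3-/-.

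**Figure D2:**
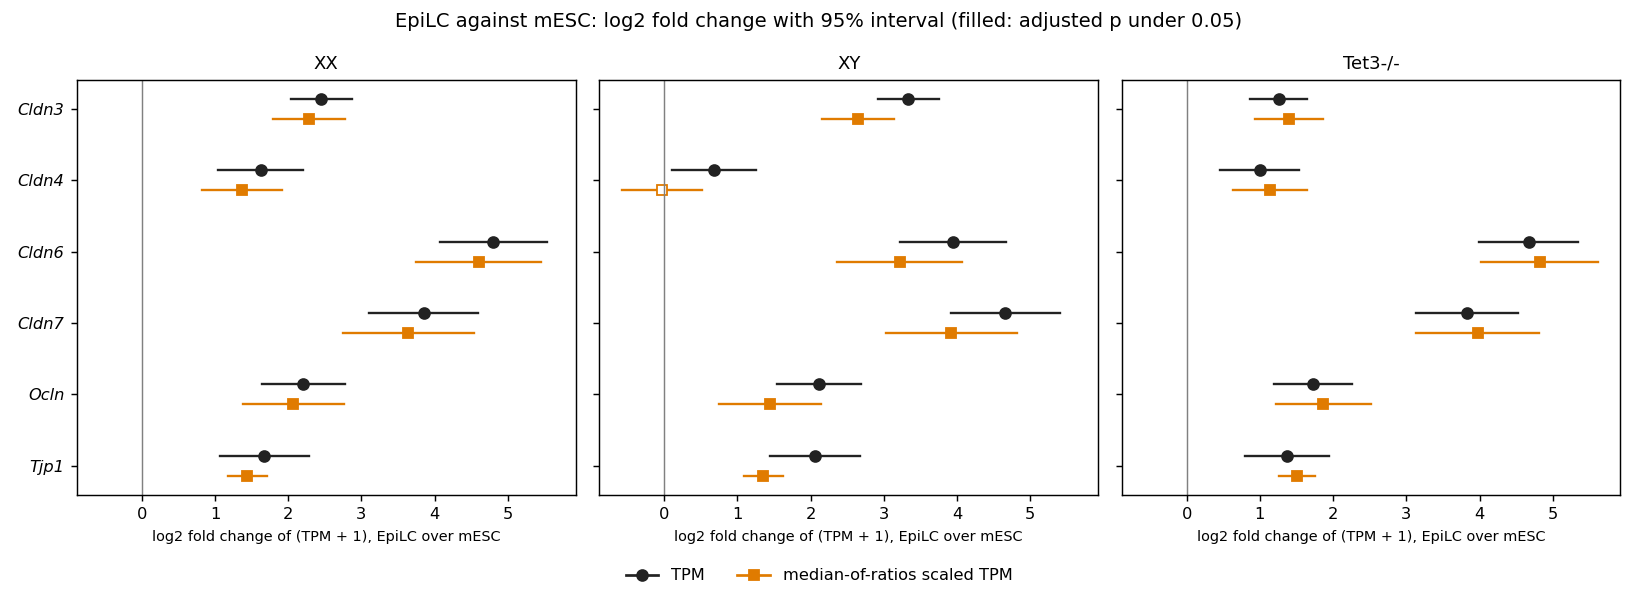
log2 fold change of (TPM + 1) in EpiLC over mESC for the 6 tested genes in XX, XY and Tet3-/-, with 95% intervals, from TPM (black) and from scaled TPM (orange). Filled symbols passed an adjusted p under 0.05. All 18 values from TPM are filled, and of the scaled ones only Cldn4 in XY (-0.031) is open.

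Cldn5, the claudin of endothelial barriers, reached at most 0.311 TPM. It was at 0.0147 to 0.0855 TPM in XX mESC, 0.131 to 0.196 in XY mESC and 0.139 to 0.311 in Tet3-/- mESC. In EpiLC it was at 0.0398 to 0.0610 TPM in XX, 0.0487 to 0.261 in XY and 0.0358 to 0.0457 in Tet3-/-. Cldn9, the neighbour of Cldn6 and a claudin of the inner ear, was at 0.0130 to 0.0990 TPM over all mESC libraries and at 0.112 to 0.461 TPM over all EpiLC libraries. Its EpiLC libraries thus lay above its mESC libraries on TPM, but on scaled values XY EpiLC (0.0650 to 0.176) overlapped XY mESC (0.0651 to 0.0845), and it was not tested. The summed level of 9 endothelial markers was 26.0 to 37.6, 14.7 to 22.1 and 24.8 to 44.0 TPM in XX, XY and Tet3-/- mESC, and 1.93 to 2.78, 0.942 to 1.14 and 0.916 to 2.12 in EpiLC. Pecam1, which mESC also express, made up most of the mESC sums, at 27.3, 16.4 and 29.1 TPM on average, and it fell in all 3 transitions with log2 fold changes of -3.71, -3.59 and -4.24 (adjusted p 2.18e-10, 1.83e-10 and 1.4e-11 by limma). Tek was at 1.61, 0.592 and 4.29 TPM on average in mESC, and Emcn and Erg were under 0.1 in every group.

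The make-up of the claudin message does not depend on the scale of a library, so each gene's share of the summed TPM of all claudin genes was taken. The sum was 62.7 ± 22.2 TPM (SD, n = 3) in XX mESC, 46.7 ± 9.82 (SD, n = 3) in XY mESC and 53.6 ± 4.83 (SD, n = 4) in Tet3-/- mESC. In EpiLC it was 320 ± 32.4, 228 ± 18.0 and 225 ± 52.5 TPM (SD, n = 3 each) in XX, XY and Tet3-/-. In mESC, Cldn4 was most of the claudin message, at 72.7% ± 3.75 (SD, n = 3) in XX, 66.0% ± 6.44 (SD, n = 3) in XY and 69.4% ± 2.94 (SD, n = 4) in Tet3-/-. The next largest mean share was that of Cldn12, at 13.3%, 15.9% and 16.9%.

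In EpiLC the claudin message was split between Cldn4, Cldn6 and Cldn7, in proportions that were close within a genotype. The Cldn4 share was 41.6% to 43.5% in XX, 32.9% to 34.8% in Tet3-/- and 20.8% to 22.8% in XY. The Cldn6 share was 31.2% to 32.9% in XX, 30.5% to 32.7% in XY and 39.6% to 40.7% in Tet3-/-. The Cldn7 share was 16.5% to 16.7% in XX, 16.5% to 18.3% in Tet3-/- and 23.5% to 25.5% in XY. The Cldn3 share was 4.72% to 4.97% in XX, 11.6% to 14.1% in XY and 1.54% to 3.24% in Tet3-/-. Mutant EpiLC #3 thus matched #1 and #4 in its Cldn4, Cldn6 and Cldn7 shares and had the lowest Cldn3 share of the 3.

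The ratio of Cldn3 to Cldn4 within a library did not overlap between the EpiLC genotypes. It was 0.113 ± 0.000869 (SD, n = 3) in XX, 0.583 ± 0.0379 (SD, n = 3) in XY and 0.0782 ± 0.0289 (SD, n = 3) in Tet3-/-. The ratio in mESC was 0.0478 ± 0.0174 (SD, n = 3), 0.0639 ± 0.00367 (SD, n = 3) and 0.0475 ± 0.00711 (SD, n = 4). Cldn7 over Cldn6 was 0.508 to 0.529 in XX EpiLC, 0.767 to 0.782 in XY EpiLC and 0.405 to 0.457 in Tet3-/- EpiLC. Cldn3 over Cldn6 was 0.144 to 0.159 in XX EpiLC, 0.354 to 0.462 in XY EpiLC and 0.0389 to 0.0808 in Tet3-/- EpiLC. These shares and ratios are given as descriptions without a test.

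**Figure D3:**
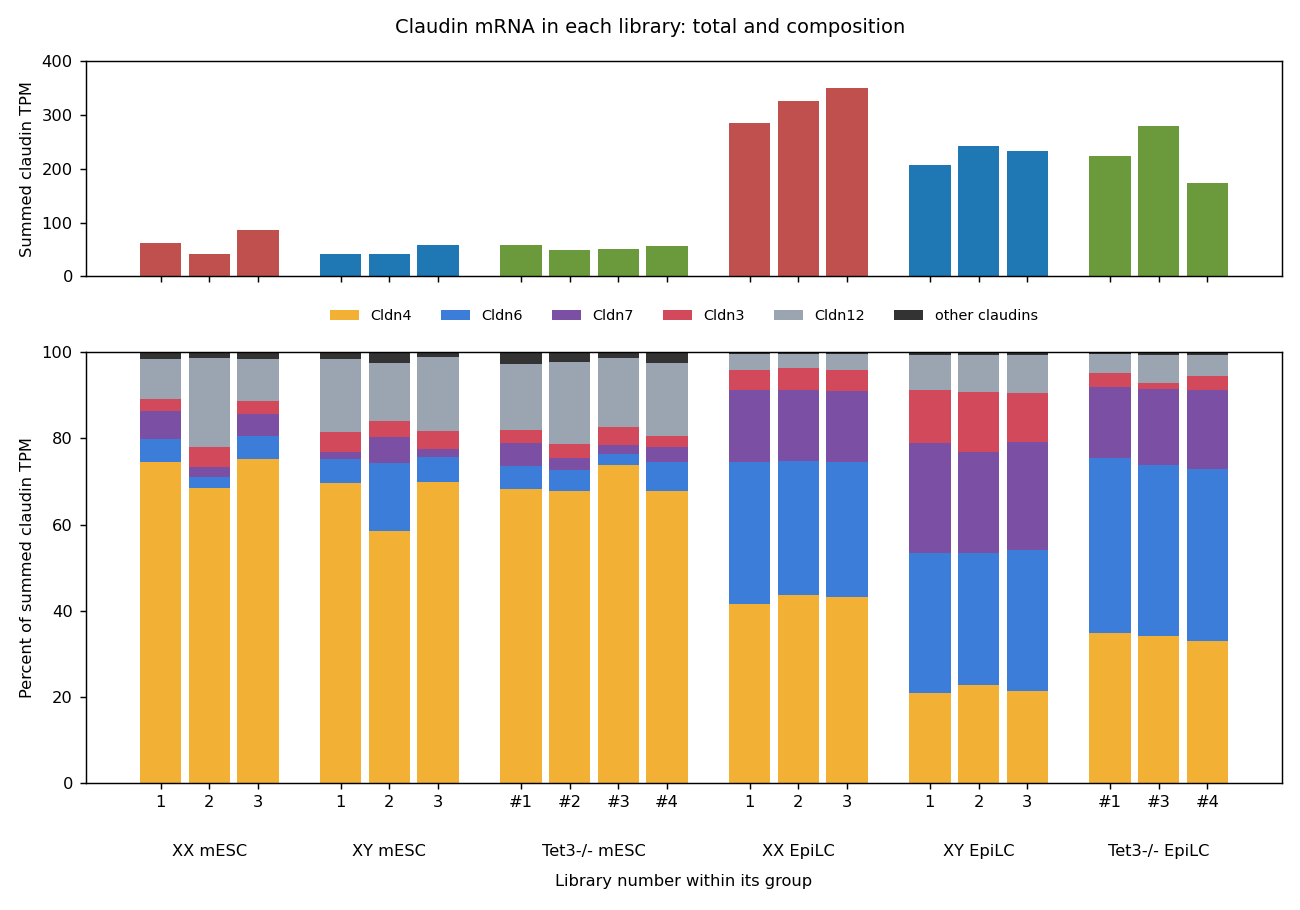
Summed TPM of all claudin genes (upper bars) and the percent of that sum held by each claudin (lower stacked bars) in each of the 19 libraries. Cldn4 holds 58.5% to 75.2% of the claudin message in mESC and 20.8% to 43.5% in EpiLC, where Cldn6 and Cldn7 fill most of the rest.

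The comparison of Tet3-/- with XX, both of the LF2 line, bears on the study's question. In mESC none of the 6 genes was called by limma, none had an unadjusted p under 0.05, and 0.601% of all tested genes were called. Scaled values gave no call either, with Cldn4 at an unadjusted p under 0.05 and 3.27% of all genes called. The 95% intervals of the difference were widest for Cldn7 (-1.12 to 0.28 log2 units) and narrowest for Cldn3 (-0.52 to 0.26), and differences inside these bounds are not excluded.

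In EpiLC, Cldn3 was lower in Tet3-/- than in XX, at 5.66 ± 1.39 against 15.5 ± 1.83 TPM (SD, n = 3 each). The log2 fold change was -1.33 (SE 0.20, adjusted p 0.00185 by limma), against 1.08% of all tested genes called. It was -1.22 on scaled values (adjusted p 0.00553 by limma) and -1.17 without mutant #3 (adjusted p 0.00377 by limma), and the call held when any 1 of the 19 libraries was left out. It was not called when only these groups entered the fit (adjusted p 0.123 by limma). The fold in the means was 2.75-fold lower in Tet3-/-.

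Cldn4 in EpiLC had 76.5 ± 18.99 TPM in Tet3-/- and 137 ± 16.5 in XX (SD, n = 3 each), without overlap. The log2 difference was -0.86 (95% interval -1.43 to -0.28) but did not pass the adjusted threshold (adjusted p 0.195 by limma, and 0.107 on scaled values). The other 4 genes had log2 differences from -0.47 (Ocln, adjusted p 0.669 by limma) to -0.10 (Tjp1, adjusted p 1 by limma). Their 95% intervals all included 0, and that of Cldn7 ran from -1.19 to 0.30. On the difference between the Tet3-/- and XX transitions no member was called by limma, with 1 (Cldn3) at an unadjusted p under 0.05 and 0.174% of all tested genes called. That difference was -1.20 for Cldn3 (95% interval -1.77 to -0.63, adjusted p 0.0933 by limma) and -0.13 for Cldn6 (95% interval -1.13 to 0.86). The lower Cldn3 in mutant EpiLC is thus called between the EpiLC groups, while the smaller rise is not.

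XX and XY differ in line as well as in sex. In mESC none of the 6 genes was called by limma and none had an unadjusted p under 0.05, against 14.2% of all tested genes called. On scaled values Cldn4 (0.80, adjusted p 0.0267 by limma) and Tjp1 (0.40, adjusted p 0.0243 by limma) were higher in XX, against 30.7% of all genes. Without XX mESC 2, on unscaled values, Cldn4 (0.82, adjusted p 0.028 by limma) and Cldn7 (1.20, adjusted p 0.011 by limma) were called higher in XX.

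In EpiLC, 2 of the 6 were called on TPM, against 47.2% of all tested genes, a share that the members' count does not exceed. Cldn4 was higher in XX, with 137 ± 16.5 against 49.4 ± 6.09 TPM (SD, n = 3 each) and a log2 fold change of 1.45 (SE 0.28, adjusted p 0.000622 by limma). Cldn3 was lower in XX, with 15.5 ± 1.83 against 28.9 ± 4.59 TPM (SD, n = 3 each) and a log2 fold change of -0.85 (SE 0.20, adjusted p 0.00302 by limma). Scaling kept Cldn4 (2.19, adjusted p 6.77e-06 by limma) and not Cldn3 (-0.12, adjusted p 0.738 by limma), for which scaled XX values were 15.3, 16.5 and 16.5 and scaled XY values 17.9, 19.8 and 15.4. Scaled values also gave Cldn6 (1.22, adjusted p 0.0273 by limma) and Tjp1 (0.48, adjusted p 0.00726 by limma) as higher in XX, against 33.0% of all genes. Tjp1 was at -0.25 (adjusted p 0.483 by limma) on TPM, so its sign depended on the scale. Cldn4 was the member that differed between the lines on both scales and in the same direction.

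The XX and XY transitions shared no library and could be subtracted. On TPM, Cldn3 rose less in XX than in XY by 0.88 log2 units (adjusted p 0.0387 by limma), against 16.0% of all tested genes, and the difference was -0.36 on scaled values (adjusted p 0.478 by limma). That call was also lost when any of 10 of the 19 libraries was left out. Cldn4 rose more in XX, by 0.94 (adjusted p 0.113 by limma) on TPM and by 1.40 (adjusted p 0.0107 by limma) on scaled values. The values for Cldn6, Cldn7, Ocln and Tjp1 were 0.86, -0.81, 0.09 and -0.38, none called on either scale. Without XX mESC 2 the value for Cldn7 was -1.28 (adjusted p 0.0456 by limma), and without XX mESC 3 that for Cldn4 was 1.22 (adjusted p 0.0474 by limma).

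**Figure D4:**
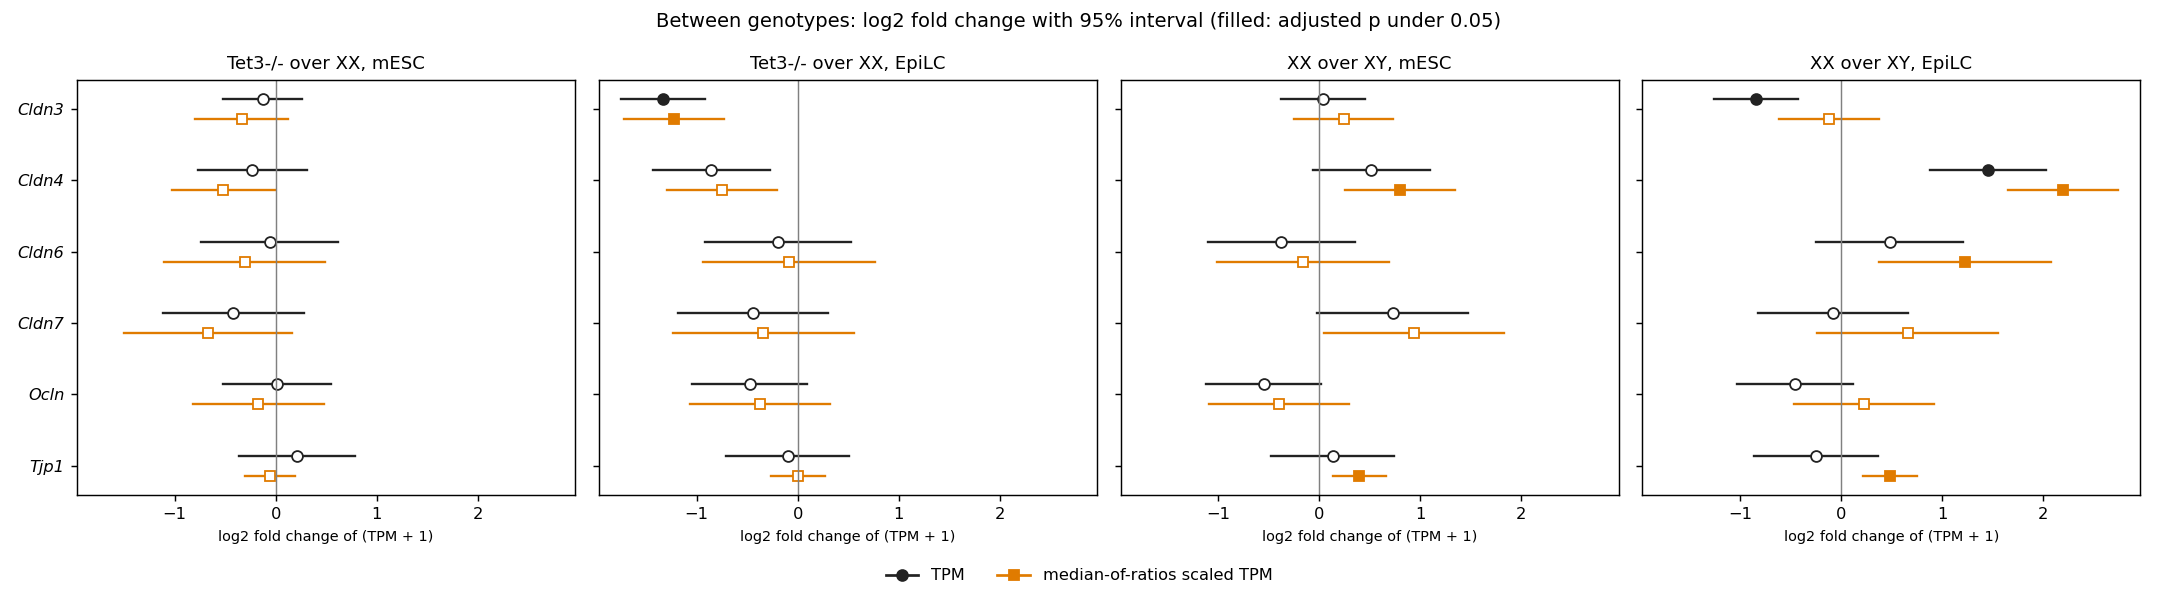
log2 fold change of (TPM + 1) between genotypes within mESC or EpiLC for the 6 tested genes, with 95% intervals, from TPM (black) and scaled TPM (orange). Filled symbols passed an adjusted p under 0.05. Cldn3 is filled on both scales for Tet3-/- over XX in EpiLC (-1.33 and -1.22), and Cldn4 on both scales for XX over XY in EpiLC (1.45 and 2.19).

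At the level of transcripts, Cldn6 was carried by 2 models with the same coding exon that start 123 bases apart, ENSMUST00000024699.3 (46.7% of the gene's TPM) and ENSMUST00000232719.1 (44.8%). The share of the first, which starts upstream, was 47.2% to 50.2% in XX EpiLC, 35.4% to 39.7% in XY EpiLC and 52.2% to 53.5% in Tet3-/- EpiLC. These groups did not overlap, but 3 libraries against 3 cannot give an exact 2-sided permutation p below 0.1, and XX against XY and Tet3-/- against XX each gave 0.1 (0.28 after Benjamini-Hochberg adjustment over 28 tests). Tet3-/- against XY was not tested. In mESC, where the gene was low, the shares were more spread, from 16.0% to 37.4% in XX and 40.5% to 64.5% in Tet3-/-. The TPM of 2 overlapping models is an estimate from shared reads.

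Tjp1 was split between ENSMUST00000032729.7 (46.9%) and ENSMUST00000102592.9 (38.3%). An alternative exon of 240 bases (80 codons) lies at chr7:65314093-65314332. It encodes the alpha domain of ZO-1, whose inclusion is known to differ between epithelial and other junctions. Of the 7 transcript models 3 span it and 1 contains it. The containing model made up 40.3% ± 1.94 of the spanning TPM in XX mESC and 43.3% ± 0.928 in XX EpiLC (SD, n = 3 each). In XY it was 43.5% ± 3.33 and 38.6% ± 3.53 (SD, n = 3 each), and in Tet3-/- 40.7% ± 1.68 (SD, n = 4) and 41.6% ± 1.96 (SD, n = 3). The exact 2-sided permutation p was 0.2, 0.2 and 0.457 for the 3 transitions, or 0.4, 0.4 and 0.674 after adjustment. With 3 libraries against 3 it cannot fall below 0.1, and with 3 against 4 not below 0.0571, so no call was possible in any of the 3 transitions. No conclusion on the exon's share is drawn. The share did not overlap between XX EpiLC (42.3% to 44.2%) and XY EpiLC (34.8% to 41.7%), with a permutation p of 0.1 (0.28 after adjustment). The 2 main Ocln models, with 61.4% and 32.3% of its TPM, have the same coding exons.

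Other tight junction genes were counted from lists of claudins, further membrane proteins, and scaffold and polarity proteins, 59 of 61 names being in the table and 38 tested. In XX 21 rose and 3 fell, in XY 29 rose and 2 fell, and in Tet3-/- 19 rose and 4 fell, where 19.2%, 41.1% and 13.6% of all tested genes rose and 12.2%, 9.36% and 21.5% fell. Some genes low in mESC passed the filter through EpiLC and could hardly be called lower. Examples are Marveld3 and Cgnl1, with mESC means of at most 0.441 and 0.265 TPM. The list's median log2 fold change was 0.85, 1.51 and 0.65, beside 0.14, 0.54 and -0.13 for all tested genes. On scaled values 22 rose and 5 fell in XX, 23 rose and 4 fell in XY, and 25 rose and 4 fell in Tet3-/-. Of all genes 23.0%, 24.5% and 23.7% then rose and 27.0%, 26.4% and 27.9% fell.

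Of 20 other claudin genes in the table only Cldn12 and Cldnd1 were expressed enough to test. Cldn12 went from 7.51 ± 2.31 to 19.4 ± 2.24 TPM (SD, n = 3 each) in XY (1.29, adjusted p 0.000325 by limma), and the changes in XX (0.56) and Tet3-/- (0.32) were not called. On scaled values it rose in all 3, by 0.61 in XY, 0.32 in XX and 0.44 in Tet3-/- (adjusted p 1.81e-05, 0.00473 and 0.000193 by limma). Cldnd1, a claudin-domain protein, rose in XY by 0.85 (adjusted p 0.0106 by limma), and by 0.21 on scaled values (adjusted p 0.153 by limma). The other claudins were at most 0.523 TPM in any library.

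Of 9 further membrane proteins tested, 6 rose and 3 fell in XX and in Tet3-/-, and 7 rose and 2 fell in XY (5 and 2 on scaled values). On TPM 19.2%, 13.6% and 41.1% of all tested genes rose in XX, Tet3-/- and XY, and 12.2%, 21.5% and 9.36% fell. On scaled values 24.5% rose and 26.4% fell in XY. Crb3, the small apical polarity protein that recruits PATJ and PALS1, rose from 2.73 ± 1.22 to 44.2 ± 4.14 TPM in XX, from 6.53 ± 1.86 to 42.4 ± 1.90 in XY (SD, n = 3 each), and from 2.38 ± 1.21 (SD, n = 4) to 40.4 ± 10.6 (SD, n = 3) in Tet3-/-. Lsr, an angulin of 3-cell contacts, rose by 2.71 log2 units in XY (adjusted p 2.19e-06 by limma). Jam2, the adhesion molecule JAM-B, moved the other way, from 85.7 ± 13.4 to 1.64 ± 0.0459 TPM in XX and from 64.2 ± 20.4 to 0.0419 ± 0.0304 in XY (SD, n = 3 each). In Tet3-/- it fell from 90.5 ± 8.43 (SD, n = 4) to 0.611 ± 0.292 TPM (SD, n = 3), or by 5.84 on the log2 scale (adjusted p 8.89e-13 by limma). Ildr1, a second angulin, fell by 1.79 log2 units in XX (adjusted p 3.32e-06 by limma) and by 2.49 in Tet3-/- (adjusted p 1.74e-08 by limma).

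Of 27 scaffold and polarity proteins, 15 rose in XX with none lower, 20 in XY with none lower, and 13 in Tet3-/- with 1 lower. On scaled values 15 rose and 2 fell in XX, 17 rose and 2 fell in XY, and 18 rose and 1 fell in Tet3-/-. Among all tested genes 19.2%, 41.1% and 13.6% rose in XX, XY and Tet3-/- on TPM, and 23.0%, 24.5% and 23.7% on scaled values. The shares that fell were 12.2%, 9.36% and 21.5% on TPM, and 27.0%, 26.4% and 27.9% on scaled values. Pard6b, of the PAR polarity complex, rose by 3.15 in XX (adjusted p 1.28e-08 by limma) and 2.65 in Tet3-/- (adjusted p 3.31e-08 by limma). Amotl2, an angiomotin of junctions, rose by 2.80 in XX (adjusted p 2.27e-07 by limma) and 2.74 in Tet3-/- (adjusted p 9.05e-08 by limma). In XY the leading genes were Patj (4.00, adjusted p 8.07e-09 by limma) and Mpdz (3.90, adjusted p 1.28e-07 by limma), which hold many PDZ domains, and cingulin (Cgn, 3.45, adjusted p 2.4e-08 by limma). Tjp3 (ZO-3) was the only gene of the 38 called on TPM between Tet3-/- and XX in EpiLC, against 1.08% of all tested genes. It had 12.4 ± 4.79 against 27.6 ± 4.34 TPM (SD, n = 3 each) and a log2 difference of -1.14 (adjusted p 0.0261 by limma, and 0.0735 on scaled values). Scaled values instead called Cgnl1 (0.59, adjusted p 0.0143 by limma) and Jam2 (-0.71, adjusted p 0.00106 by limma), named here after their values were seen, against 5.44% of all genes. None of the 38 was called by limma in mESC between these genotypes on TPM, against 0.601% of all tested genes. Magi3, also named afterwards, was called on scaled values (0.40, adjusted p 0.0457 by limma), against 3.27% of all genes.

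Between XX and XY, 8 of the 38 were called in mESC (5 higher and 3 lower in XX, and 12 and 3 on scaled values) and 19 in EpiLC. Of all tested genes 14.2% were called in mESC, 6.43% higher and 7.73% lower, and 47.2% in EpiLC, 5.23% higher and 42.0% lower. On scaled values 30.7% of all genes were called in mESC, with 2717 higher and 1886 lower in XX, and 33.0% in EpiLC. In EpiLC 4 of the 38 were higher and 15 lower in XX on TPM, and 12 higher and 6 lower on scaled values. The split turned with the scale, as it did over all genes. Of these, 783 were higher and 6291 lower on TPM, and 2683 higher and 2264 lower on scaled values. Jam3 was lower in XX EpiLC on both scales, at 1.31 ± 0.150 against 13.5 ± 1.77 TPM (SD, n = 3 each; -2.65, adjusted p 2.58e-07 by limma). So were the scaffold Magi2 (-2.22, adjusted p 1.28e-05 by limma) and paracingulin, Cgnl1 (-1.41, adjusted p 0.000157 by limma). In the difference of the XX and XY transitions 8 were called on TPM, 1 higher and 7 lower in XX, against 16.0% of all genes (3.61% higher and 12.4% lower). On scaled values 13 were called, 6 higher and 7 lower, against 23.4% of all genes.

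**Figure D5:**
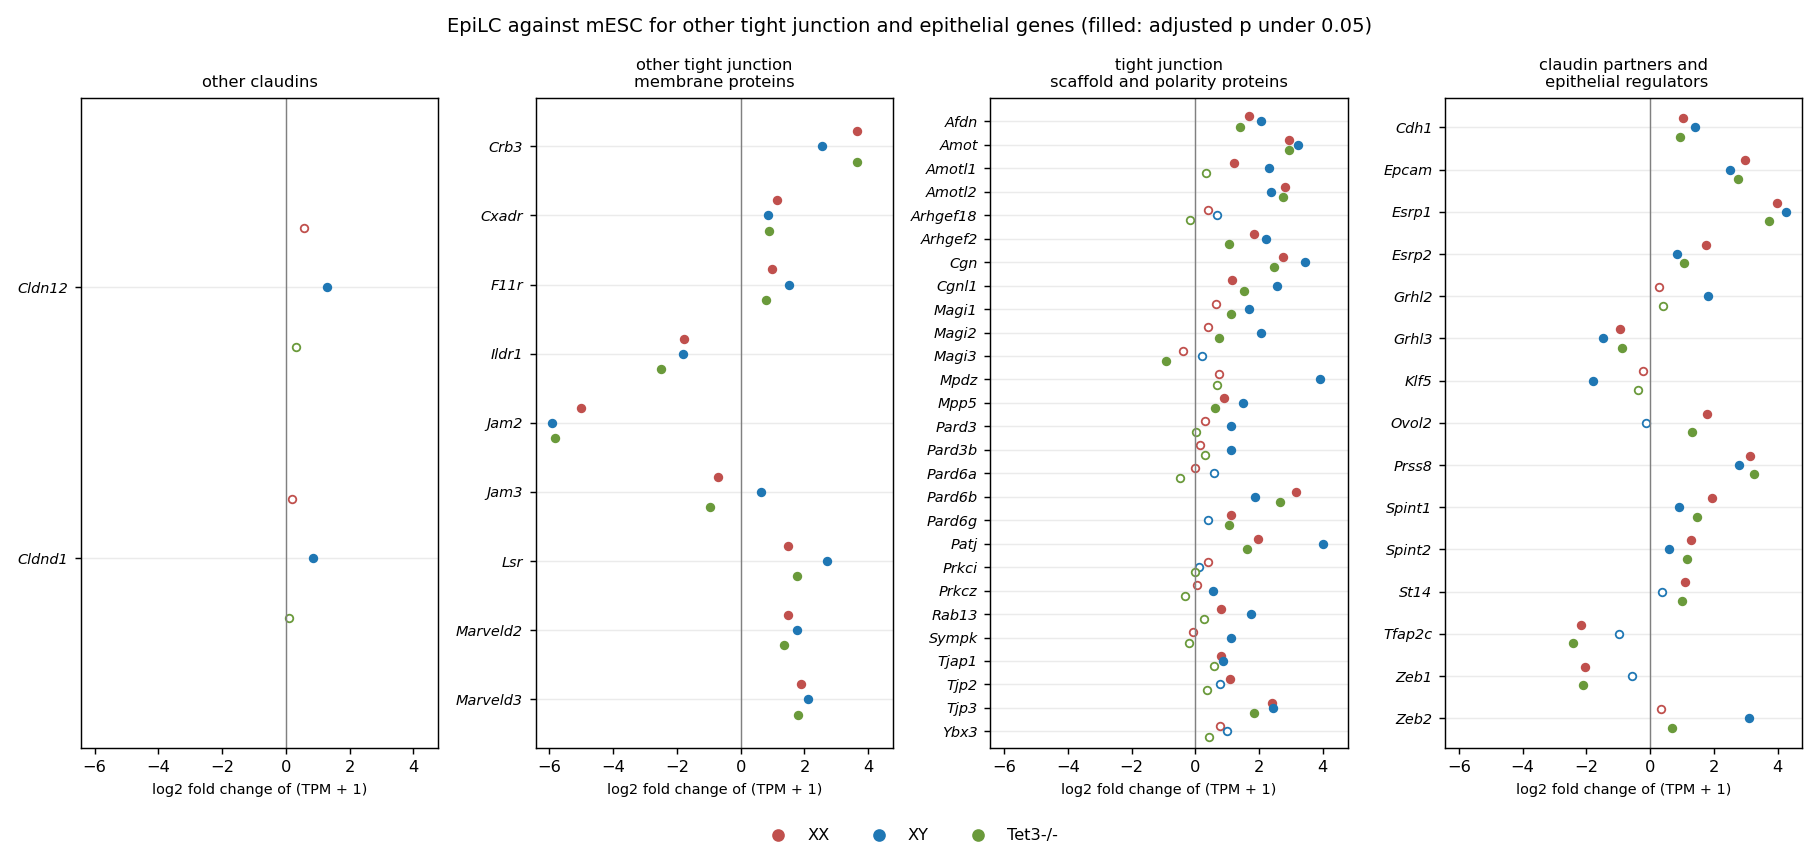
log2 fold change of (TPM + 1) in EpiLC over mESC in XX (red), XY (blue) and Tet3-/- (green) for the tested genes of 4 lists except 1. Filled points passed an adjusted p under 0.05. Most scaffold genes lie to the right of 0, and Jam2 lies far to the left at -5.03, -5.92 and -5.84.

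Genes that act on claudins or on epithelial identity were counted as well. Of 16 tested, 10 rose and 3 fell in XX, 10 rose and 2 fell in XY, and 11 rose and 3 fell in Tet3-/-. Of all tested genes 19.2%, 41.1% and 13.6% rose and 12.2%, 9.36% and 21.5% fell. On scaled values 8 rose and 6 fell in XY, and the counts in XX and Tet3-/- were 10 and 3, and 11 and 3. Of all genes 23.0% (XX), 24.5% (XY) and 23.7% (Tet3-/-) rose on that scale, and 27.0%, 26.4% and 27.9% fell. Prss8, the membrane protease prostasin, rose by 3.13 (adjusted p 4.09e-08 by limma), 2.80 (adjusted p 8.85e-08 by limma) and 3.26 (adjusted p 6.91e-09 by limma) log2 units in XX, XY and Tet3-/-. Esrp1, an epithelial splicing factor, rose from 0.278 ± 0.207 to 19.01 ± 2.49 TPM in XX and from 0.810 ± 0.253 to 34.0 ± 5.81 in XY (SD, n = 3 each). Zeb2, a repressor of epithelial genes, rose in XY to 8.55 ± 1.62 TPM (SD, n = 3) and was at 0.357 ± 0.152 in XX EpiLC (SD, n = 3), a difference of -2.81 (adjusted p 6.17e-08 by limma). With mESC means of at most 0.209 TPM for Zeb2 and 0.810 for Esrp1, both passed the filter through EpiLC and could hardly be called lower in a transition.

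The summed levels of marker lists of other cell types also differed between mESC and EpiLC. That of 10 trophectoderm markers was 26.7 to 46.1, 26.9 to 35.6 and 14.4 to 27.3 TPM in XX, XY and Tet3-/- mESC, and 373 to 434, 123 to 131 and 253 to 631 in EpiLC. That of 8 surface epithelium markers was 28.1 to 37.4, 20.7 to 35.9 and 24.3 to 43.7 TPM in mESC, and 177 to 194, 58.4 to 63.9 and 132 to 402 in EpiLC. That of 9 primitive endoderm markers was 3.82 to 13.4, 1.74 to 2.76 and 5.43 to 13.1 TPM in mESC, and 35.6 to 46.9, 71.4 to 94.1 and 28.5 to 60.3 in EpiLC. Lamb1, called higher in all 3 transitions, made up most of the EpiLC sums, at 33.6, 60.6 and 27.7 TPM on average. Gata6 was at 1.96, 0.0605 and 0.779 TPM on average in mESC and 0.266, 0.301 and 0.752 in EpiLC. Gata4 was at 0.264, 0.126 and 0.288 TPM in mESC and 0.388, 0.907 and 0.772 in EpiLC. The sum thus describes Lamb1 more than the list. Of 7 trophectoderm markers tested, 3 rose and 1 fell in XX, 4 rose and 2 fell in XY, and 4 rose and 1 fell in Tet3-/-. Of 5 surface epithelium markers tested, 4, 3 and 4 rose and none fell. Among all tested genes 19.2%, 41.1% and 13.6% rose in XX, XY and Tet3-/-, and 12.2%, 9.36% and 21.5% fell.

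In XX EpiLC, Krt18 (244 TPM) and Krt8 (153) made up most of the trophectoderm sum, and Krt19 (79.3) and Perp (69.3) most of the surface epithelium sum. Krt7 was at 4.54 TPM there against 0.569 in XX mESC, Eomes at 2.16 against 0.517, Gata3 at 2.07 against 1.83, Krt15 at 2.48 against 0.122 and Krt14 at 0.990 against 0.0184. Cdx2, Elf5, Gata2, Krt5 and Trp63 were under 0.1 TPM on average in XX EpiLC. Eomes was called higher in the Tet3-/- transition (1.44, adjusted p 0.0134 by limma). The part of these markers in the claudin rise was not tested.

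The genes whose pattern over the 19 libraries was most like that of each member were found by Pearson's r of log2(TPM + 1) among 10341 genes with a mean of at least 5 TPM in some group. For Cldn6 they were Prss8 (r = 0.991) and Rhbdf1 (r = 0.988). For Ocln they were Epcam (r = 0.984) and Cgrrf1 (r = 0.973), and Epcam went from 13.2 ± 3.75 to 108 ± 5.19 TPM in XX (SD, n = 3 each). For Cldn7 they were Tpm2 (r = 0.989) and Arl4c (r = 0.987), and for Tjp1 Dpysl5 (r = 0.986) and Clcn5 (r = 0.985). The genes most like Cldn3 were Nptxr (r = 0.978), at 4.25, 7.04 and 2.30 TPM on average in XX, XY and Tet3-/- EpiLC, and Clic5 (r = 0.974). Those most like Cldn4 were Pdzd2 (r = 0.954), at 10.0, 3.62 and 6.54 TPM in the same groups, and Itgb4 (r = 0.942), a subunit of the laminin receptor. Libraries fall into mESC and EpiLC, which share the scale of their group, so r describes these libraries and is given without a test.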

How the data were processed

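RNA was sequenced from 19 libraries, made as stranded total RNA libraries after removal of rRNA (per the labels' protocols). The authors deposited TPM per transcript, made with FastQC 0.11.7, Trimmomatic 0.35 and Salmon 1.1.0 on GRCm38, per the submitters' processing notes. The annotation they used is not given in the sources used here. Of 140948 transcripts, 139357 matched GENCODE M21 with version and 495 without, and 1096 (0.0454% to 0.215% of TPM) did not match. TPM was summed per gene. Genes with at least 1 TPM in at least 3 libraries were tested with limma 3.58.1 (R 4.3.3) on log2(TPM + 1), in 1 fit over 6 groups with a mean-variance trend, for 9 contrasts. P-values were adjusted by Benjamini-Hochberg over the 14972 genes of each contrast, at a threshold of 0.05. The fit was tested on simulated data. Median-of-ratios size factors came from 18385 genes. Transcript shares were tested by exact permutation (SciPy 1.17.1). Alternatives were scaling, pseudocount, filter, trend, the groups fitted, a replicate block and leaving out each library. Named genes of a list were taken from the 3 called genes per comparison with the largest absolute change and a mean of at least 5 TPM in the higher group. Not all of these are given in the text (Amot, for example, is not). Those most like a member were the 2 with the highest r. The members and lists were chosen with earlier results of these data known. For 1 gene, counted in its list, values are not reported here.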

Additional observations from a re-analysis of the deposited data

Results flagged for a closer look

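The rise of Cldn3 from mESC to EpiLC differed between XX and XY on TPM. The difference of the transitions, XX minus XY, was -0.88 log2 units (limma adjusted p 0.0387), and it is listed here because a test of the difference itself passed the threshold. It was -0.36 on scaled values (limma adjusted p 0.478).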

How the results depend on the processing

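Under median-of-ratios scaling, Cldn4 in the XY transition was -0.031 (limma adjusted p 0.936), of opposite sign to TPM. Tjp1 for XX against XY in EpiLC was 0.48 (limma adjusted p 0.00726), also of opposite sign. Scaling gave 2 members called for XX against XY in mESC, where 30.7% of all genes were called. With the groups compared fitted alone, 0 members were called for Tet3-/- against XX in EpiLC and 4 for XX against XY in EpiLC, and with a replicate block in addition 0 and 5. The difference of the XX and XY transitions had 0 members called with a pseudocount of 0.1, with no filter and with a filter of 5 TPM. With each library left out in turn, 0 to 2 members were called in that difference and for XX against XY in mESC, and 5 to 6 in the XY transition. Apart from scaling, the shares of all genes called under these settings are not given here. The counts therefore cannot be read as results about the members. The causes were not tested. Of 54 member values, 48 kept their call whichever library was left out. A replicate block over all groups changed no count of members called. Samples sharing a number had correlated deviations of 0.07, -0.05 and 0.03 in XX, 0.19, -0.04 and 0.24 in XY, and 0.27, 0.30 and -0.02 in Tet3-/-. Samples with different numbers ranged from -0.12 to 0.06 in XX, -0.26 to 0.11 in XY and -0.34 to 0.28 in Tet3-/-. These values do not settle whether the numbers pair the libraries, and the main fit treated them as unpaired.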
